A study of Mus musculus with 2 samples.

Results

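Neuropeptide expression was examined for 8 genes, Sst, Npy, Vip, Cck, Penk, Pdyn, Tac1 and Cort, in single nuclei of the mouse adult hippocampus and of the E14 mouse brain. The genes were taken by symbol, with earlier results of these data known, and each had 1 row among the 32285 genes of both count tables. Slide-tags, the method used, marks nuclei of a frozen tissue section with spatial barcodes before droplet sequencing of their RNA. The adult hippocampus came from a coronal section of a male C57BL/6J mouse aged 56 days, and the E14 brain from a sagittal section of a whole C57BL/6J embryo. C57BL/6J is an inbred laboratory strain, and no engineered allele and no drug under study was named for either. Each tissue gave 1 library, so no difference here has a replicate check and no test was run. Values are given with exact 95% intervals, Poisson for levels and Clopper-Pearson for shares, which cover counting error only. Where no UMI was counted, the limit given is the value of 3 counts.

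Neuropeptides are short signalling chains cut from longer precursor proteins, stored in dense-core vesicles and released beside a fast transmitter, after which they act on receptors coupled to G proteins. In the hippocampus they are textbook markers of interneurons, the local inhibitory neurons that make GABA with the enzymes encoded by Gad1 and Gad2. Several are also made by principal neurons, such as cholecystokinin by pyramidal cells and opioid peptides by dentate granule cells. In the embryonic brain, interneurons leave the ventral forebrain and migrate into the cortex, and precursor genes come on at different times in different lineages.

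Somatostatin (Sst) and cortistatin (Cort) are related peptides that act on the same receptors, and the stretch of each gene that encodes the peptide ring is shown because reads of 1 gene could be taken for the other if the whole message were this alike. The ring sequences lie at chr16:23889732-23889767 (Sst, minus strand) and chr4:149125270-149125305 (Cort, minus strand) of GRCm38, both in coding exons of the GENCODE vM21 annotation. They are printed 5′ to 3′, and capitals mark the bases that the pair share at the same position.
Sst ring: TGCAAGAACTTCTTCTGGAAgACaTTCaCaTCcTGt
Cort ring: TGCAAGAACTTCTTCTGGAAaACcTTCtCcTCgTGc
Of the 36 bases, 30 were identical, and 11 of the 12 codons specified the same residue. The longest run shared by the whole Sst transcript of 721 bases and the whole Cort transcript of 677 bases was 21 bases.

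Proenkephalin (Penk) and prodynorphin (Pdyn) are opioid precursors that carry several copies of the enkephalin core, of which the last codon decides between the methionine and the leucine form. The copies are shown because they are what separates the products of these genes. Each copy is 15 bases, printed 5′ to 3′ from the minus strand, with the last codon in capitals. The Penk copies lie between chr4:4133848-4133862 and chr4:4134334-4134348, and the Pdyn copies between chr2:129688073-129688087 and chr2:129688238-129688252, all in coding exons.
Penk copy 1: tacggaggcttcATG
Penk copy 3: tatggcggcttcATG
Penk copy 6: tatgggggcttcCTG
Penk copy 7: tacgggggctttATG
Pdyn copy 1: tatggcggctttTTG
Pdyn copy 2: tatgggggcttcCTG
Pdyn copy 3: tatggtggtttcCTG
Penk held 7 copies in 268 codons, 6 with the methionine codon ATG and 1 with a leucine codon. Pdyn held 3 copies in 248 codons, and all 3 ended in a leucine codon.

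The adult library had 1609 nuclei with a median of 6607 UMIs (unique molecules counted) after filtering, and the E14 library had 9036 with a median of 4204. Nuclei were given a class from UMIs of marker genes, never of the 8 peptide genes, and 279 adult and 3731 E14 nuclei, with medians of 1246 and 2909 UMIs, fitted none. The markers of the labelled tissues were present, though they also served to assign the classes, so their shares are a description: 94.4% of dentate granule-like nuclei had Prox1, 85.3% of CA1-like nuclei had Mpped1 and 57.6% Fibcd1, and 92.5% of the 40 inhibitory-like nuclei had Gad2. At E14 3 classes had few of the markers that define their list and were renamed after their values were seen. The striatal list gave Ebf1/Foxp1/Foxp2 nuclei (Drd1 in 0%, Isl1 in 21.7%). The list for Gata-expressing midbrain neurons gave Lhx1/Gad1 nuclei. There Gata2 was in 6.62% and Tal2 and Helt in 0%, but Gata3 was in 28.5%, Tal1 in 17.2% and Sox14 in 12.6%. The oligodendrocyte precursor list gave Tnr/Lhfpl3 nuclei (Sox10 in 7.21%, Pdgfra in 15.8%). A Gad nucleus had at least 2 UMIs of Gad1 and Gad2 together and no more UMIs of the glutamate transporters Slc17a6, Slc17a7 and Slc17a8. There were 97 such nuclei in the adult (6.03%, median 11251 UMIs) and 3296 at E14 (36.5%, median 6111). The rule also took 6 of 272 oligodendrocyte-like nuclei in the adult (2.21%) and 44 of 153 endothelial-like nuclei at E14 (28.8%), cells that should lack these genes. These classes, with medians of 2994 and 8879 UMIs, serve below as the background for shares of nuclei with a UMI. In the adult the background class was shallower than the Gad nuclei, so the adult shares set against it are at unequal depth. At E14 the background class was deeper than the Gad nuclei and held Gad nuclei itself. A share within its interval or below it was therefore not told apart from background, which does not show that the gene was absent.

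In adult Gad nuclei 5 of the 8 peptide genes, Sst, Npy, Vip, Tac1 and Cort, stood at least 2-fold above all other nuclei, and none stood at least 2-fold below. Among the 16282 genes with enough UMIs to be compared, 6.32% were at least 2-fold higher in Gad nuclei and 7.49% at least 2-fold lower. At E14 only Npy and Penk of the 7 peptide genes compared were at least 2-fold higher and none was 2-fold lower, against 1.11% and 4.74% of 19984 genes. Over 13 other definitions or filters of the nuclei the ratio stayed at or above 2 for all 5 adult genes, but at E14 in only 9 for Npy (lowest 1.88) and 8 for Penk (lowest 0.915). The median ratio over the peptide genes was 23.2 in the adult and 0.743 at E14. Levels are given as CPM, the UMIs of a gene per 1000000 UMIs summed over the nuclei of a group.

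**Figure D1:**
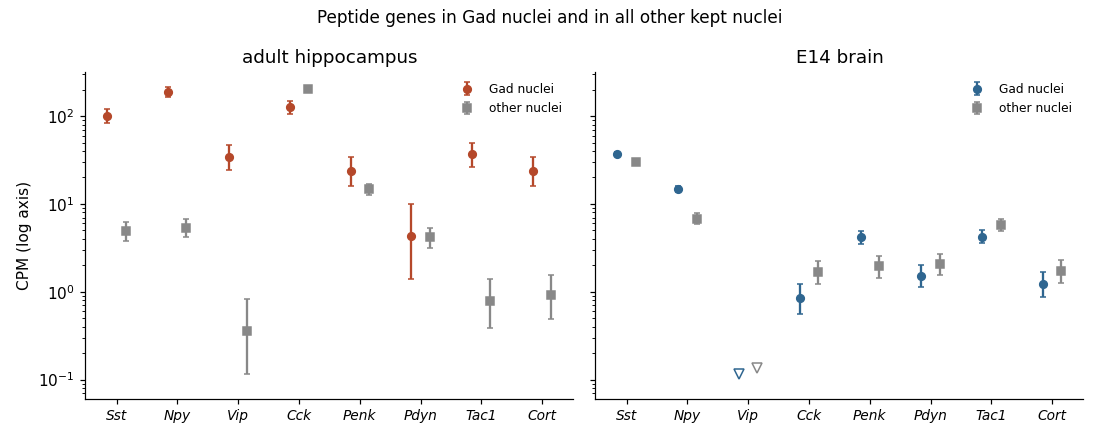
Level of each peptide gene (CPM, log axis) in Gad nuclei (circles) and in all other nuclei (grey squares) of the adult hippocampus and the E14 brain, with exact 95% Poisson intervals and open triangles for the upper limit where no UMI was counted. In the adult the circles for Sst, Npy, Vip, Tac1 and Cort lie far above the squares, with Npy at 189 against 5.36 CPM, while Cck lies below at 127 against 204 CPM.

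Somatostatin, which inhibits hormone and transmitter release and marks interneurons that contact dendrites, had 186 UMIs in 38 adult nuclei. Gad nuclei held 117 of them, at 99.7 CPM (82.4 to 119), and the other nuclei 69, at 4.87 CPM (3.79 to 6.16), a ratio of 20.5. Most UMIs, but not most of the nuclei with a UMI, were thus in Gad nuclei, since 26 of the 38 were other nuclei. It was detected in 12 of the 97 Gad nuclei (12.4%, 6.56 to 20.6), against 1.84% of oligodendrocyte-like nuclei. Among classes, the inhibitory-like nuclei were highest at 198 CPM (161 to 240), with 102 UMIs in 7 of 40 nuclei. The CA3-like nuclei followed at 36.3 CPM (24.3 to 52.1) and the astrocyte-like nuclei at 22.3 CPM (14.1 to 33.4), and the intervals of these lower 2 classes overlapped. The CA3-like value rested on 1 nucleus that held 27 of its 29 UMIs and also 13 of Npy. CA1-like nuclei, the pyramidal cells, stood at 0.623 CPM and dentate granule-like nuclei at 2.46 CPM. With a limit of at least 10 Gad UMIs, 26 nuclei were left and the ratio for Sst was 10.7, and without nuclei over 1% mitochondrial UMIs it was 74.2.

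At E14 Sst was found on both sides. It had 2009 UMIs in 784 nuclei, and stood at 37.3 CPM (35.2 to 39.5) in Gad nuclei and 30.4 CPM (28.4 to 32.5) in the others, a ratio of 1.23. With at least 10 Gad UMIs the ratio was 0.881, and with the inhibitory classes alone it was 0.673, so its direction depended on how Gad nuclei were defined. Sst was detected in 12.6% of Gad nuclei (11.5 to 13.8) and in 6.54% of endothelial-like nuclei (3.18 to 11.7). The classes with the most were the Lhx1/Gad1 nuclei at 74.5 CPM (59.5 to 92.2), with 28 of their 85 UMIs in 1 nucleus, the hypothalamic-like nuclei at 51.5 CPM (43.7 to 60.3) and the Tnr/Lhfpl3 nuclei at 47.4 CPM (38.4 to 57.9), and neighbours in this order overlapped. The Lhx6 interneuron-like nuclei, which carry the marker of the lineage that later makes most Sst interneurons, stood lower at 30.4 CPM (26.6 to 34.6), with a UMI in 112 of 839 (13.3%). Radial glia-like nuclei, the progenitors, had 7.48 CPM (4.63 to 11.4). Clustering without the 8 peptide genes placed the highest Sst levels in cluster 16 at 114 CPM (99.7 to 131), in 59 of 245 nuclei, and cluster 12 at 104 CPM (90.0 to 120), in 76 of 373 nuclei. Klhl14 was among the leading genes of cluster 16 and Trpc5 among those of cluster 12, and 82.0% and 75.9% of their nuclei were Gad nuclei.

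Cortistatin, the relative of somatostatin, had 41 UMIs in 18 adult nuclei. Gad nuclei held 28, at 23.9 CPM (15.8 to 34.5), and other nuclei 13, at 0.917 CPM (0.488 to 1.57), a ratio of 26.0 that lay between 11.7 and 68.0 under the other definitions and filters. A single nucleus held 17 of the 28, and without it the level in Gad nuclei was 9.67 CPM (4.83 to 17.3). Cort was found in 8 of 97 Gad nuclei (8.25%, 3.63 to 15.6), above the 0.735% of oligodendrocyte-like nuclei, and the inhibitory-like class was highest at 46.6 CPM (29.9 to 69.3). At E14 no nucleus had more than 1 Cort UMI, and the 86 UMIs were spread over 86 nuclei. The share of E14 Gad nuclei with Cort, 1.18%, lay below that of endothelial-like nuclei, 3.27% (1.07 to 7.46), and was not told apart from background. The single UMIs set the E14 level at 1.24 CPM in Gad nuclei and 1.72 CPM in the others.

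Neuropeptide Y, which dampens glutamate release and marks neurogliaform and ivy interneurons among others, was found in more adult Gad nuclei than Sst, Vip, Tac1 or Cort were. It had 222 UMIs there, at 189 CPM (165 to 216), and 76 in other nuclei, at 5.36 CPM (4.22 to 6.71), a ratio of 35.3. A UMI was found in 31 of 97 Gad nuclei (32.0%, 22.9 to 42.2) and in 4.04% of oligodendrocyte-like nuclei. The inhibitory-like class stood apart, at 388 CPM (336 to 446) with Npy in 22 of 40 nuclei (55.0%, 38.5 to 70.7). The astrocyte-like nuclei at 26.1 CPM (17.2 to 38.0), the CA3-like nuclei at 23.8 CPM and the oligodendrocyte-like nuclei at 15.6 CPM (9.10 to 25.0) were far lower, and dentate granule-like nuclei had 2.91 CPM. The nucleus with the most Npy held 49 UMIs, and without it Gad nuclei stood at 151 CPM (130 to 176).

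Npy was also the peptide gene that stood out in the Lhx6 interneuron-like nuclei at E14. These had 211 UMIs, at 27.8 CPM (24.2 to 31.8), in 138 of 839 nuclei (16.4%). The next classes, the hypothalamic-like and the endothelial-like nuclei, were close together, the latter at 10.9 CPM (6.81 to 16.4), with 10 of their 22 UMIs in 1 nucleus. The interval of the Lhx6 interneuron-like nuclei overlapped neither the endothelial-like interval nor, for shares, the endothelial-like 6.54%. Cluster 6, led by Lhx6, Erbb4 and Sox6, had the highest level of the clusters at 52.0 CPM (42.5 to 63.1), in 77 of 470 nuclei. Over all E14 Gad nuclei Npy stood at 14.8 CPM (13.5 to 16.2), against 6.80 CPM (5.86 to 7.85) in the others, a ratio of 2.18, which was 1.88 with at least 4 Gad UMIs and 1.94 with at least 10. The share over all Gad nuclei, 8.04%, lay within the interval of the background class, so at that level it was not told apart from background. Of the endothelial-like nuclei with Npy, 6 were Gad nuclei.

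Vasoactive intestinal peptide (Vip), the marker of interneurons that inhibit other interneurons, was rare and narrow in the adult. Of its 45 UMIs, 40 lay in 5 Gad nuclei, at 34.1 CPM (24.3 to 46.4), and the other 5 in 5 other nuclei, at 0.353 CPM (0.115 to 0.823), a ratio of 96.6. With at least 10 Gad UMIs the ratio for Vip was 38.1. The 5 Gad nuclei (5.15%, 1.69 to 11.6) held 13, 13, 9, 3 and 2 UMIs, and 4 of them were inhibitory-like, while the nucleus with 3 was oligodendrocyte-like and had 2302 UMIs in all. Oligodendrocyte-like nuclei had a Vip UMI in 1.10%. The inhibitory-like class stood at 71.8 CPM (50.6 to 99.0). At E14 Vip was detected in 0 of 9036 nuclei, which allows a share of up to 0.0332% and a level of up to 0.0509 CPM.

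Tachykinin precursor 1 (Tac1), which encodes substance P and neurokinin A, rested on 1 nucleus in the adult. Its 43 UMIs in Gad nuclei gave 36.6 CPM (26.5 to 49.3), against 11 UMIs and 0.776 CPM (0.387 to 1.39) in other nuclei. But 37 of the 43, or 86.0%, came from a single nucleus, and without it Gad nuclei stood at 5.27 CPM (1.93 to 11.5). Only 3 of 97 Gad nuclei had a UMI (3.09%, 0.642 to 8.77), a share whose interval holds the 1.10% of oligodendrocyte-like nuclei. CA1-like and dentate granule-like nuclei had no Tac1 UMI.

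At E14 Tac1 was split between Gad nuclei, with 134 of its 291 UMIs, and the others. It stood at 4.25 CPM (3.56 to 5.03) in Gad nuclei and 5.74 CPM (4.87 to 6.71) in the others. Its share in Gad nuclei, 2.43%, was no higher than the 2.61% of endothelial-like nuclei and was not told apart from background. The Tnr/Lhfpl3 nuclei were the highest class at 14.3 CPM (9.59 to 20.6), with Tac1 in 16 of 222 (7.21%), and their interval did not reach the Lhx6 interneuron-like 2.63 CPM. By cluster, the highest was cluster 14 at 26.3 CPM (19.4 to 35.0), with 47 UMIs in 25 of 274 nuclei. Among its leading genes was Lmx1b, a transcription factor gene of hindbrain and midbrain neurons, and 9.49% of its nuclei were Gad nuclei. Cluster 15, led by Pomc and Nkx2-1, followed at 14.8 CPM (10.0 to 21.2).

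Cholecystokinin (Cck), made by pyramidal cells and by a type of basket interneuron, had the opposite distribution in the adult. Of its 3044 UMIs, Gad nuclei held 149, or 4.89%, at 127 CPM (107 to 149), against 204 CPM (197 to 212) in other nuclei, a ratio of 0.621. CA1-like nuclei were highest at 410 CPM (389 to 433), with Cck in 176 of 184 (95.7%). Thalamic-like nuclei followed at 289 CPM (262 to 318), CA3-like nuclei at 254 CPM (220 to 291) and inhibitory-like nuclei at 237 CPM (197 to 283), and the last 3 each overlapped their neighbour in the order, while the CA1-like interval stood clear of them. Dentate granule-like nuclei, the other principal cells of the hippocampus, were the lowest named class at 60.9 CPM (53.9 to 68.6), below astrocyte-like nuclei at 153 CPM (130 to 179) and oligodendrocyte-like nuclei at 92.8 CPM (75.6 to 113).

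Detection of Cck was as common outside Gad nuclei as within them. A UMI was found in 42 of 97 Gad nuclei (43.3%, 33.3 to 53.7), in 47.2% of the other nuclei and in 17.6% of oligodendrocyte-like nuclei. Thinned to 1000 UMIs a nucleus, 10.6% of Gad nuclei, 35.1% of CA1-like nuclei, 3.32% of dentate granule-like nuclei and 4.72% of oligodendrocyte-like nuclei held Cck, the shallower nuclei being left out. An inhibitory-like Gad nucleus held 40 Cck UMIs and no other peptide. The next highest Gad nuclei were a CA1-like one with 14 and an inhibitory-like one with 10. Another inhibitory-like nucleus, with 42 Cck UMIs, had Gad UMIs but more of the Slc17a genes, so that it did not count as a Gad nucleus. Clusters 2, 6 and 8, whose nuclei had medians of 843, 1151 and 1045 UMIs and little of the nuclear RNA Malat1, held Cck at 851, 437 and 767 CPM, and the part of free RNA in the Cck values was not tested. The CA1-like nuclei fell into clusters 4 and 10, at 341 CPM (318 to 365) and 497 CPM (457 to 539).

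At E14 Cck was scarce, with 73 UMIs in 61 of 9036 nuclei. Cortical excitatory-like nuclei were highest at 5.08 CPM (2.90 to 8.25), with a UMI in 12 of 295 (4.07%), and Gad nuclei stood at 0.856 CPM (0.564 to 1.24), with 0.667%. Endothelial-like nuclei had none, 0 of 153, which allows a share of up to 1.96%. Cluster 3, led by Slc17a7 and Neurod2, genes of excitatory neurons, had the highest level of the clusters at 5.22 CPM (3.41 to 7.65). Both the highest class and the highest cluster were of excitatory neurons.

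**Figure D2:**
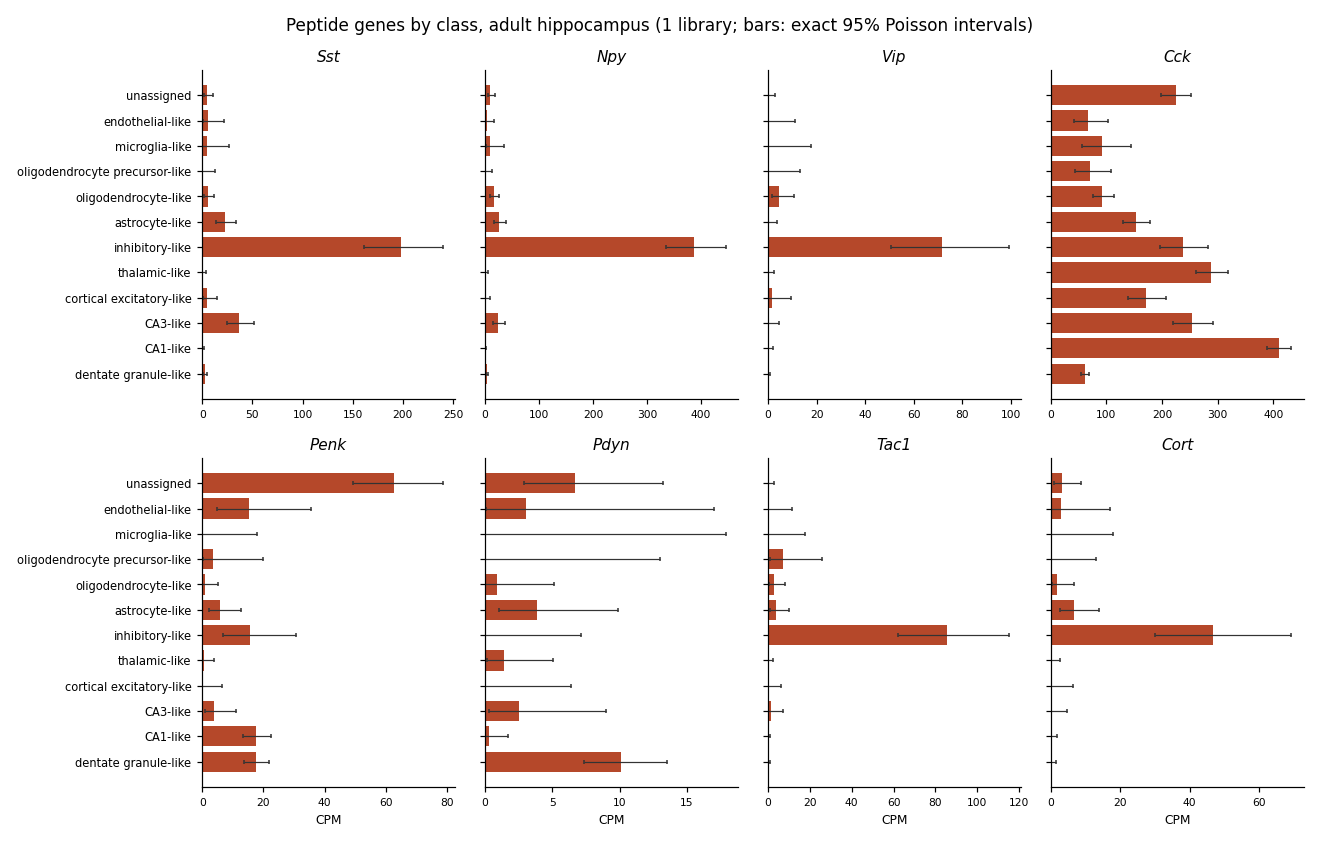
Level of the 8 peptide genes (CPM, linear axes from 0, 1 panel a gene) in the 11 named classes and the unassigned nuclei of the adult hippocampus, with exact 95% Poisson intervals as error bars. The inhibitory-like bar is the highest for Sst (198 CPM), Npy (388 CPM), Vip, Tac1 and Cort, the CA1-like bar is the highest for Cck (410 CPM), and the dentate granule-like bar is the highest for Pdyn (10.1 CPM).

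Proenkephalin was found in several adult classes. It had 237 UMIs in 125 nuclei and stood at 23.9 CPM (15.8 to 34.5) in Gad nuclei and 14.7 CPM (12.8 to 16.9) in the others, a ratio of 1.62. Dentate granule-like nuclei at 17.5 CPM (13.8 to 21.8), CA1-like nuclei at 17.4 CPM (13.2 to 22.6) and inhibitory-like nuclei at 15.5 CPM (6.71 to 30.6) could not be ordered, while oligodendrocyte-like nuclei had 0.918 CPM. The unassigned nuclei were higher than all of these, at 62.7 CPM (49.3 to 78.6), with 23 of their 75 UMIs in 1 nucleus and 11 in another. The share with a UMI was 25.0% in CA1-like nuclei (18.9 to 31.9), 13.4% in Gad nuclei (7.33 to 21.8), 10.3% in dentate granule-like nuclei and 0.368% in oligodendrocyte-like nuclei. Within the dentate granule and CA1 populations Penk was uneven between clusters. Cluster 3, led by C1ql2 and Trpc6, had 38.3 CPM (31.2 to 46.6) in 41 of 206 nuclei, and cluster 1, led by Npnt and Onecut1, had 13.9 CPM (10.0 to 18.7), with 23 of its 43 UMIs in 1 nucleus. CA1 cluster 4 had 22.8 CPM, with Penk in 32.3% of nuclei, and CA1 cluster 10 had 3.50 CPM (0.954 to 8.97), with Penk in 7.69%. The ratio of Gad to other adult nuclei was 0.952 with the inhibitory class alone and 0.284 with at least 10 Gad UMIs, so that its direction also depended on the definition.

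At E14 Penk stood at 4.15 CPM (3.47 to 4.93) in Gad nuclei and 1.94 CPM (1.45 to 2.53) in the others, a ratio of 2.14. With the inhibitory classes alone as Gad nuclei the ratio was 0.915. The share of Gad nuclei with Penk was 2.03% (1.58 to 2.57). No endothelial-like nucleus had a UMI, but the limit this allows, the same as for Cck, lies within that interval. The share was therefore not clearly above background. Much of the signal lay in cluster 20, with 58 UMIs in 17 of 127 nuclei, at 61.9 CPM (47.0 to 80.1). This cluster was led by Ddc, which encodes a dopamine-synthesis enzyme, Calcr and Onecut3, and 86.6% of its nuclei were Gad nuclei. Among the named classes the fibroblast or mesenchyme-like nuclei were highest at 10.7 CPM (6.71 to 16.2), with Penk in 18 of 290, followed by the Dlx GABAergic-like nuclei at 5.41 CPM (3.30 to 8.35), and these intervals overlapped. The Lhx6 interneuron-like nuclei had 1.45 CPM.

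Prodynorphin, whose peptides act on the kappa opioid receptor, was found mostly in dentate granule-like nuclei in the adult. Of its 64 UMIs, 45 lay in dentate granule-like nuclei, at 10.1 CPM (7.35 to 13.5), in 41 of 302 nuclei (13.6%, 9.92 to 18.0) and never more than 2 in a nucleus. Oligodendrocyte-like nuclei had 0.368%. CA1-like nuclei stood at 0.311 CPM, and in inhibitory-like nuclei Pdyn was found in 0 of 40, which allows a share of up to 7.50% and a level of up to 5.82 CPM. Gad nuclei held 5 UMIs in 4 nuclei, at 4.26 CPM (1.38 to 9.94), against 4.16 CPM (3.17 to 5.37) in the other nuclei. Between dentate clusters 1 and 3 Pdyn overlapped, with 33 UMIs at 10.6 CPM and 20 UMIs at 7.67 CPM.

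At E14 Pdyn had 104 UMIs, of which Gad nuclei held 48, and its highest cluster was led by genes of hypothalamic neurons. Cluster 15, led by Pomc, Nkx2-1 and Calb1, had 24 UMIs, at 11.9 CPM (7.60 to 17.7), in 18 of 252 nuclei, and 9.92% of its nuclei were Gad nuclei. Hypothalamic-like nuclei stood at 3.65 CPM (1.82 to 6.54), with Pdyn in 3.45%. The share in all Gad nuclei, 1.33%, lay within the interval of endothelial-like nuclei, 1.31% (0.159 to 4.64), and was not told apart from background.

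**Figure D3:**
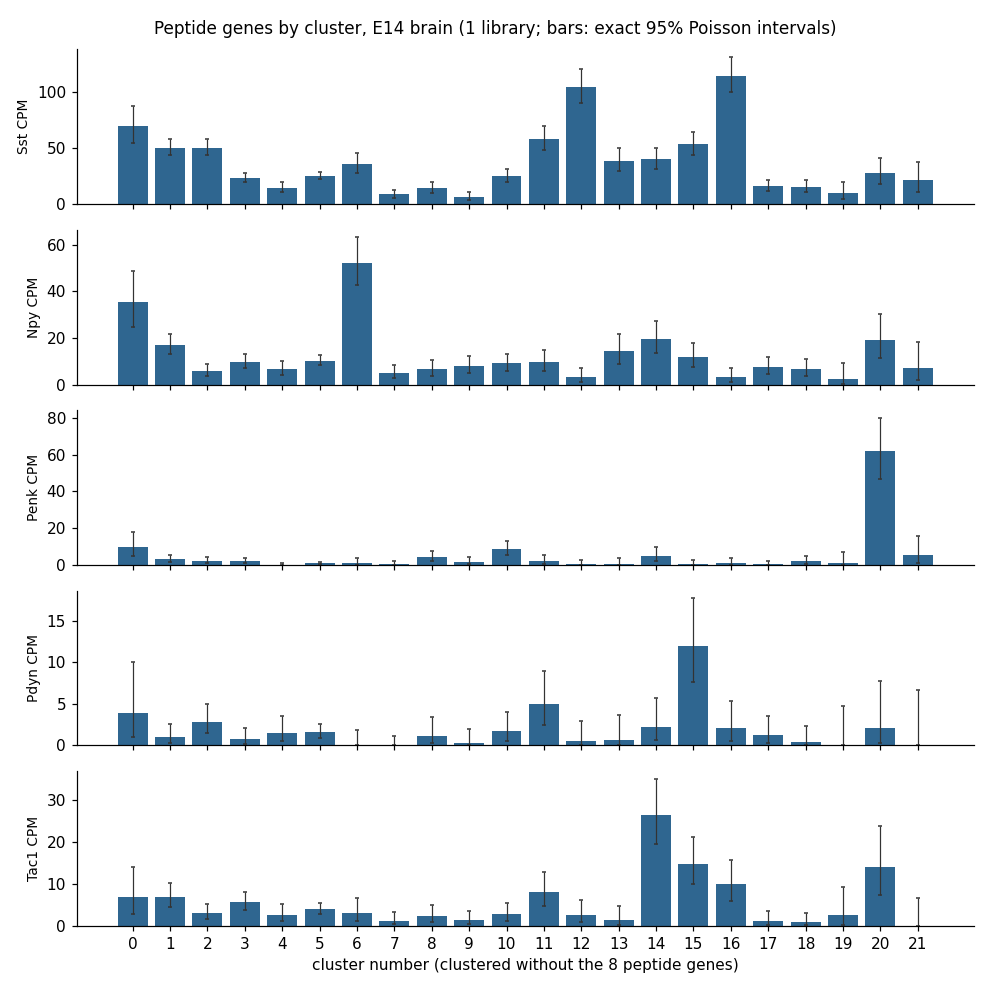
Level of Sst, Npy, Penk, Pdyn and Tac1 (CPM, linear axes from 0) in the 22 clusters of E14 brain nuclei, numbered 0 to 21, with exact 95% Poisson intervals as error bars. The highest clusters differ by gene, with 16 and 12 for Sst (114 and 104 CPM), 6 for Npy (52.0 CPM), 20 for Penk (61.9 CPM), 15 for Pdyn (11.9 CPM) and 14 for Tac1 (26.3 CPM).

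**Figure D4:**
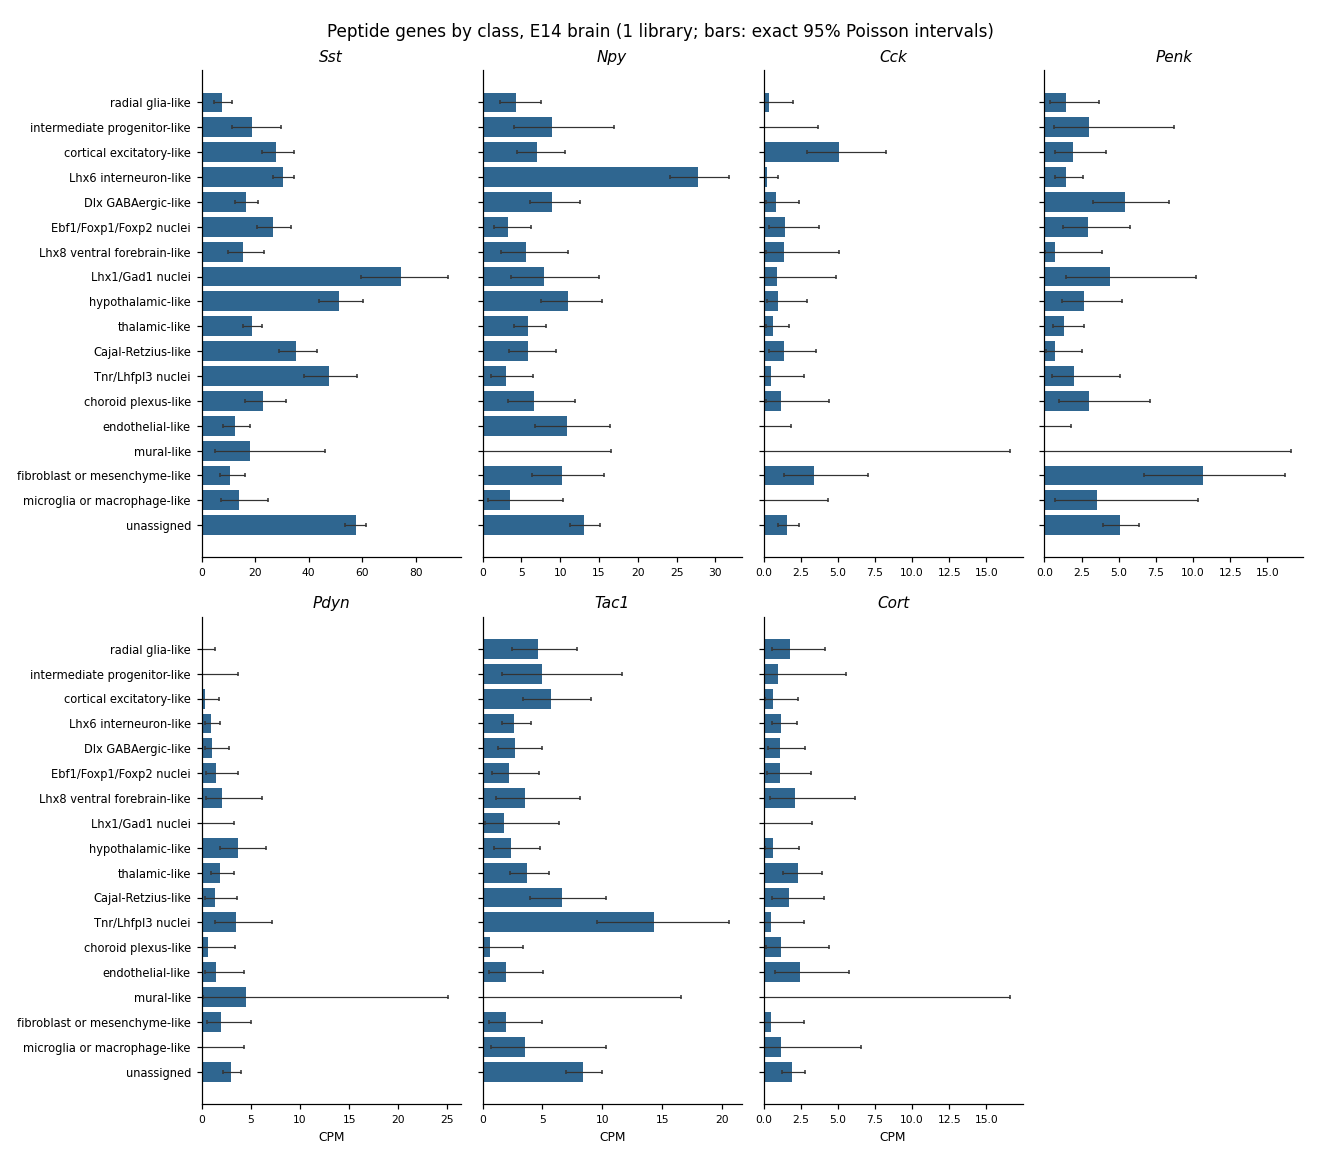
Level of the peptide genes other than Vip (CPM, linear axes from 0, 1 panel a gene) in the 17 named classes and the unassigned nuclei of the E14 brain, with exact 95% Poisson intervals as error bars. Npy has its highest bar in Lhx6 interneuron-like nuclei (27.8 CPM), Sst in Lhx1/Gad1 nuclei (74.5 CPM), Cck in cortical excitatory-like nuclei (5.08 CPM) and Tac1 in Tnr/Lhfpl3 nuclei (14.3 CPM).

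Each of the 8 peptide genes was at a lower level in E14 Gad nuclei than in adult Gad nuclei, and each was lower by at least 2-fold. Of 18357 genes compared in the same way, 21.5% were at least 2-fold lower at E14 and 16.1% at least 2-fold higher. The adult level was 2.67 times the E14 level for Sst and 2.80 times for Pdyn, the smallest ratios of the 8. It was 5.75 times for Penk, 8.63 times for Tac1, 12.8 times for Npy and 19.3 times for Cort. Cck had a ratio of 148, and Vip was at least 358-fold lower at E14, set against 3 UMIs over the whole E14 group. Some of these calls rested on 1 adult nucleus. Without the adult Gad nucleus with most UMIs of the gene the ratio was 1.24 for Tac1, 1.73 for Pdyn and 1.97 for Sst, all under 2, and 7.82 for Cort. The nuclei with most Tac1 and most Cort were the same nucleus. Penk was at 1.15 with at least 10 Gad UMIs, Sst at 1.52 without the Slc17a condition, and Pdyn turned to 0.738 where a Gad nucleus also needed 2 Gad UMIs per 10000. Npy, Vip, Cck and Cort stayed above 2 under all 14 alternatives. Age, tissue, section and library differ together between these groups and cannot be told apart.

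Adult Gad nuclei mostly carried at least 1 of the 8 peptides. These include Cck, found in 43.3% of Gad nuclei and 47.2% of other nuclei. The number of peptides a nucleus held was counted in Gad nuclei only, with no share of other nuclei beside it. Of the 97, 27 had none, 32 had 1, 29 had 2, 8 had 3 and 1 had 4, so that 70 (72.2%, 62.1 to 80.8) had at least 1 and 38 (39.2%, 29.4 to 49.6) at least 2. Thinned to 1000 UMIs the shares were 26.6% and 7.45%, and among the 33 Gad nuclei of the inhibitory-like class they were 87.9% and 51.5%. At E14 780 of 3296 Gad nuclei (23.7%, 22.2 to 25.2) had at least 1 and 129 (3.91%, 3.28 to 4.63) at least 2. The number found moved with depth at E14, from a median of 5572 UMIs in nuclei with none to 7668 with 1 and 13282 with 2. The E14 Gad nucleus with the most peptides, which had 113181 UMIs in all, held 44 Sst, 24 Npy, 6 Tac1, 3 Penk and 1 Pdyn UMIs.

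**Figure D5:**
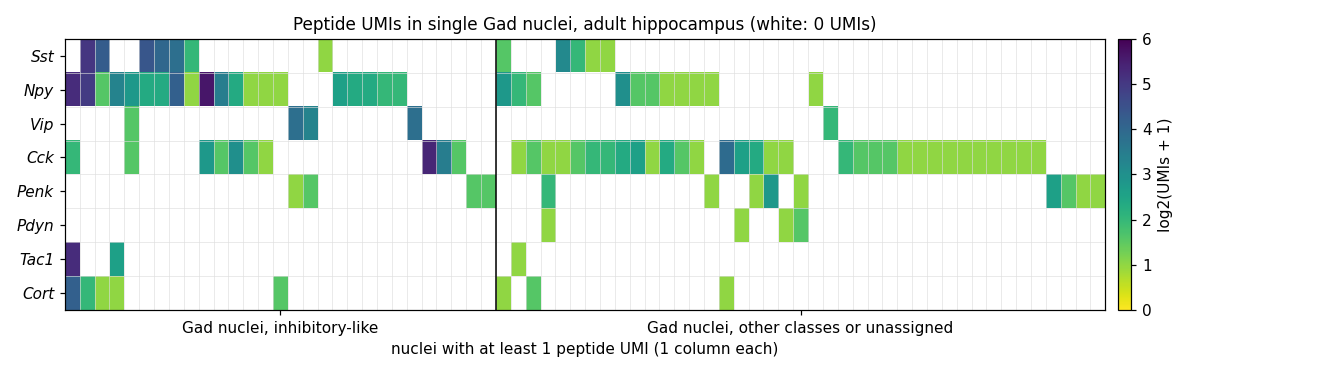
UMIs of the 8 peptide genes, as log2(UMIs + 1) from white (0) to dark, in each of the 70 adult Gad nuclei with at least 1 peptide UMI. The 29 inhibitory-like nuclei stand left of the line and the 41 others right of it, and the high counts of Sst, Npy, Vip and Tac1 lie on the left.

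Sst and Npy share a textbook class of dendrite-targeting interneurons. In the adult Npy was found in 7 of 12 Gad nuclei with Sst (58.3%, 27.7 to 84.8) and in 28.2% of those without (19.0 to 39.0). The nuclei with most UMIs of both held 32 Sst and 30 Npy UMIs, 13 Sst and 17 Npy, 20 Sst and 4 Npy, and 15 Sst and 4 Npy. Apart from Cort these nuclei held no other peptide, and the nucleus with 32 Sst UMIs also held 3 of Cort. In the other direction Sst was found in 7 of 31 nuclei with Npy (22.6%, 9.59 to 41.1) and in 7.58% of those without, so that most Npy nuclei had no Sst UMI.

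Cort nuclei held Npy and, less often, Sst. Npy was found in 7 of 8 Gad nuclei with Cort (87.5%, 47.3 to 99.7) and in 27.0% of those without (18.1 to 37.4), intervals that did not overlap, while Sst was found in 3 of the 8 (37.5%, 8.52 to 75.5) and in 10.1% of those without. The nuclei with Cort were deeper, at a median of 24657 against 10878 UMIs, and after thinning to 1000 UMIs only 1 of them kept a Cort UMI. All 3 Gad nuclei with Tac1 also had Npy, and 2 of them Cort. The nucleus that carried most Tac1 held 37 Tac1, 37 Npy, 17 Cort and 3 Cck UMIs but no Sst, with 38 Gad UMIs among 35868 in all. A further nucleus held 9 Npy, 5 Tac1 and 1 Cort UMIs.

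No nucleus held both Vip and Sst, and 5 Vip nuclei are too few to limit that share. Among the 5 Vip nuclei 2 also had Penk (40.0%, 5.27 to 85.3), with 13 Vip and 1 Penk UMIs and with 9 Vip and 2 Penk UMIs, against 12.0% of Gad nuclei without Vip. Another had 2 Vip, 6 Npy and 2 Cck UMIs. Penk was found in none of the 12 Sst nuclei and in 1 of the 31 Npy nuclei (3.23%), against 18.2% of Gad nuclei without Npy. Cck was as frequent with Npy (15 of 31, 48.4%) as without it (40.9%), and the intervals overlapped. The Npy nucleus with most UMIs, 49, held 6 of Cck.

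At E14 Npy was more frequent in Gad nuclei with Sst than in those without, though most nuclei with either gene lacked the other. Npy was in 60 of 416 Gad nuclei with Sst (14.4%, 11.2 to 18.2) and in 7.12% of those without (6.21 to 8.12). The nuclei with Sst were deeper, at a median of 7950 against 5894 UMIs, and after thinning to 1000 UMIs the shares were 4.08% (4 of 98) and 1.46%. Tac1 was in 24 of 416 nuclei with Sst (5.77%, 3.73 to 8.46) and in 1.94% of those without (1.47 to 2.52), again with deeper nuclei among those with Tac1, at a median of 11651 against 6036 UMIs. The part of depth in these pairs was not tested beyond the thinning.

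Genes of the interneuron lineages were unevenly spread over the peptides in adult Gad nuclei. Only 33 of the 97 were inhibitory-like, and 19 were astrocyte-like, 17 dentate granule-like and 11 unassigned, so these shares compare cell classes as well as lineages. The inhibitory-like class held 7 of the 12 Sst nuclei, 20 of 31 with Npy, 4 of 5 with Vip and 4 of 13 with Penk. Adarb2 and Prox1, which mark the lineage from the caudal ganglionic eminence (Prox1 also marks dentate granule cells), were each found in 1 of 12 Sst nuclei (8.33%, 0.211 to 38.5), against 75.3% and 56.5% of Gad nuclei without Sst. Adarb2 was found in 4 of 5 Vip nuclei (28.4 to 99.5), against 66.3% of Gad nuclei without Vip (55.7 to 75.8). It was in 11 of 13 Penk nuclei (84.6%, 54.6 to 98.1), against 64.3% of those without Penk (53.1 to 74.4). Prox1 was in 5 of 5 Vip nuclei (47.8 to 100), against 47.8% without Vip (37.3 to 58.5). The intervals of each of these comparisons overlapped. The other genes listed for the caudal lineage were not rarer with Sst as a group. Nr2f2 was in 4 of 12 Sst nuclei (33.3%, 9.92 to 65.1) against 15.3% (8.40 to 24.7). Htr3a was in 8.33% against 4.71%, and Sp8 in 0% against 1.18%. Lhx6, which marks the lineage from the medial ganglionic eminence, was found in 8 of 31 Npy nuclei (25.8%, 11.9 to 44.6) and in none of the Gad nuclei without Npy (0 to 5.44). It was also found in 4 of 8 Cort nuclei and 2 of 3 Tac1 nuclei, but in only 1 of 12 Sst nuclei. Maf was in 20 of 31 Npy nuclei (64.5%) against 22.7% without, and Satb1 in 7 of 8 Cort nuclei against 23.6% without. Among subclass markers, Lamp5 was in 11 of 31 Npy nuclei (35.5%, against 10.6%) and Reln in 12 (38.7%, against 13.6%), both genes of neurogliaform cells. Pvalb, the parvalbumin gene of fast-spiking interneurons, was in 2 of 3 Tac1 nuclei and in none of the 12 Sst nuclei.

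At E14 Lhx6 was found in 118 of 265 Gad nuclei with Npy (44.5%, 38.4 to 50.7) and in 19.2% of those without. Sox6, of the same lineage, was in 198 (74.7%, 69.0 to 79.8), against 41.0%. With Sst, Lhx6 showed no such difference, at 20.9% of nuclei with Sst and 21.3% of those without. Other genes of that list were more frequent with Sst too, with Sox6 in 53.6% (48.7 to 58.5) against 42.3% and Satb1 in 44.2% (39.4 to 49.2) against 33.3%. This was not particular to that list. Of the genes listed for the caudal lineage, Prox1 was in 29.1% with Sst against 19.0%, and Nr2f2 in 56.5% against 45.0%. With Npy, Prox1 was in 35.1% against 18.9% and Nr2f2 in 61.5% against 45.1%. The nuclei with either peptide were deeper than those without, and the part of depth was not tested. Adarb2 was in 55 of 67 nuclei with Penk (82.1%, 70.8 to 90.4), against 49.1%, and in 35 of 44 with Pdyn (79.5%). It was also in 74.4% of nuclei with Cort and 67.5% of those with Tac1. Nuclei with Penk had a median of 9360 UMIs against 6047 without, and those with Pdyn 19601 against 6065.

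Over the whole lists, 3 of the 4 Lhx6-lineage genes compared were at least 2-fold higher in adult Gad nuclei than in other nuclei, among them Maf at 25.8-fold and Sox6 at 2.64-fold, and none was 2-fold lower. Of the Adarb2-lineage genes 2 of 3 were higher and none lower, and of the interneuron subclass genes 5 of 7 were higher and none lower, led by Reln at 16.6-fold and Pvalb at 9.43-fold. At E14 these counts were 1 of 5 (Lhx6, 6.16-fold), 2 of 4 (Adarb2, 3.00-fold, and Sp8, 2.22-fold) and 0 of 7, with Calb2 lower at 0.481. The median ratios of the lists were 4.45, 2.59 and 5.14 in the adult and 1.20, 1.85 and 0.773 at E14. Between ages, E14 over adult Gad nuclei, 2 genes of each lineage list were higher and 2 lower, with medians of 1.45 and 2.86, and 4 of 8 subclass genes were lower and none higher, with a median of 0.380.

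Several of the receptors for these peptides were distributed otherwise than the peptides. Of 13 receptor genes compared in the adult, Sstr1 (2.79-fold), Oprd1 (3.19-fold) and Tacr1 (12.8-fold), which bind somatostatin, enkephalin and substance P, were at least 2-fold higher in Gad nuclei, while the Vip receptor genes Vipr1 (0.296) and Vipr2 (0.128) were lower. The Sstr1 ratio rested on 6 UMIs in Gad nuclei, at 5.11 CPM (1.88 to 11.1), against 1.83 CPM (1.20 to 2.69) in the others, and these intervals overlapped. The median ratio of the receptor list was 0.856. Receptors of Npy were highest in dentate granule-like nuclei, a class with Npy at 2.91 CPM. Npy1r stood there at 60.5 CPM (53.5 to 68.1), with 270 of its 477 UMIs, against 24.3 CPM in the next class. The other 2 were close to the next class. Npy2r was at 22.0 CPM (17.8 to 26.8) against 21.3 CPM in CA3-like nuclei. Npy5r was at 27.6 CPM (22.9 to 32.9) against 24.8 CPM in oligodendrocyte precursor-like nuclei. Vipr2 had 173 of its 190 UMIs in thalamic-like nuclei, at 121 CPM (103 to 140). Cckbr, the brain cholecystokinin receptor, was highest in cortical excitatory-like nuclei, at 46.6 CPM, with 27 of 50 UMIs. Tacr1 was highest in inhibitory-like nuclei at 34.9 CPM (20.7 to 55.2), the class that also held most Tac1.

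At E14 none of 14 receptor genes was at least 2-fold higher in Gad nuclei, and Vipr1 (0.467) and Cckar (0.406) were lower, with a median of 0.809. Between the ages, E14 over adult Gad nuclei, Sstr2 (2.28) and Vipr2 (2.14) were at least 2-fold higher at E14 and 6 of 11 were lower. The latter were Npy1r (0.0699), Npy2r (0.0843), Npy5r (0.0478), Oprd1 (0.0174), Oprm1 (0.409) and Sstr1 (0.378), with a list median of 0.409. All 3 Npy receptor genes compared were therefore lower at E14, as Npy was. The adult Vipr2 level rested on 2 UMIs, at 1.70 CPM (0.206 to 6.15), an interval that held the E14 level of 3.64 CPM (3.01 to 4.37). Sstr2 at E14 was highest in intermediate progenitor-like nuclei at 85.6 CPM (68.5 to 106), followed by cortical excitatory-like nuclei at 65.7 CPM.

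The genes of peptide processing were mostly at like levels in Gad and other nuclei. Of 9 compared in the adult only Pcsk1 (3.19-fold), a convertase that cuts precursors, was at least 2-fold higher and none was lower, with a median of 1.06. At E14 none was higher or lower, with a median of 0.961. Between the ages Pcsk1 (0.194), Pcsk2 (0.327), Scg2 (0.333) and Chgb (0.305), which encode convertases and granins of the dense-core vesicle, were at least 2-fold lower in E14 Gad nuclei and none was higher. Of the other peptide precursor genes, 4 could be compared in the adult, of which Pnoc, the nociceptin precursor, was 12.1-fold higher in Gad nuclei. At E14 0 of 15 were higher and 7 lower, among them Pomc (0.232), Cartpt (0.295) and Trh (0.329), genes of hypothalamic neurons. Between the ages Tac2 was lower in E14 Gad nuclei at 0.0409, with 11 UMIs at E14 and 10 in the adult. Cartpt stood at 7.41 CPM in E14 Gad nuclei and, from 1 UMI, at 0.852 CPM (0.0216 to 4.75) in adult Gad nuclei. The median ratios of these precursor genes were 0.930 in the adult, 0.542 at E14 and 1.44 between ages.

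Across the 11 adult classes the gene whose log2(CPM + 1) profile was most like that of Sst was Npy, among 13902 genes with at least 50 UMIs (Pearson r = 0.949), and for Npy it was Sst, followed by Dlx6os1 (r = 0.858). Tac1 was most like Slc32a1, the vesicular GABA transporter gene (r = 0.947), and Cck most like Ociad2 (r = 0.941). For Penk the most like was Dcaf1 (r = 0.852) and for Pdyn Atxn7l2 (r = 0.852). Across the 17 E14 classes, with 17596 genes, Sst was most like Elmod1 (r = 0.865), Npy like B130046B21Rik (r = 0.824), Cck like Kcnt2 (r = 0.843), Penk like Elp6 (r = 0.790), Pdyn like Faim2 (r = 0.838), Tac1 like Kcnk12 (r = 0.864) and Cort like Gm48984 (r = 0.833). The classes of 1 library share depth and free RNA, and these values describe likeness only.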

How the data were processed

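Nuclei were profiled with 10x droplet RNA sequencing. Per the file headers the authors made the tables with Cell Ranger 6.1.2 (adult) and 7.0.1 (E14) and deposited UMI counts. The build was mm10 with intronic reads counted. The methods name CellBender for the embryo, but this header is Cell Ranger's, so the E14 counts are taken as those before it and may hold free RNA. The 8 genes and all lists were chosen with earlier results of these data known.

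Barcodes under 500 UMIs or with 5% or more mitochondrial UMIs were dropped, which left nuclei as follows (1609 of 1661 barcodes, 15346746 UMIs; 9036 of 9037 barcodes, 58923882 UMIs). The libraries shared 1 barcode. A class needed at least 2 distinct markers from a list of 8. It also needed a log likelihood ratio of at least 3 against the list's share of all UMIs of the library. The list with the highest ratio was taken, and no margin over the next list was required. It was named with at least 20 nuclei and 3 markers each in at least 10% of them, which held for 11 of 15 adult and 17 of 18 E14 lists. Folds were computed for genes with at least 20 UMIs in the nuclei compared and called at 2-fold. Clusters were made with Seurat 5.3.0 (R 4.3.3, 2000 variable genes, 30 components, resolution 0.8) without the 8 genes, giving 17 and 22. Scrublet in scanpy 1.11.5 marked 6 and 4 doublets by its own threshold, which was judged not to have worked. The top 21 and 653 by score were marked instead and kept in the main values. Intervals and other values used Python 3.11.15, numpy 2.4.6, scipy 1.17.1 and pandas 2.3.3, with plots in matplotlib 3.10.9. Code was tested on simulated data. Genes named were the 8 members, class markers, the lists of receptors, processing genes, other peptide genes, Lhx6 and Adarb2 lineages and interneuron subclasses, and for each member with at least 50 UMIs the 2 genes with the most similar class profile. Nuclei named for high counts were chosen after values were seen. Penk overlaps A830012C17Rik on the opposite strand. Some genes that this rule names are not reported here. Positions of nuclei were not analysed here.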

Additional observations from a re-analysis of the deposited data

How the results depend on the processing

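No paired analysis was possible because each tissue has 1 library, and for the same reason no sample could be left out. The alternatives with at least 10 Gad UMIs, without non-neuronal classes, with the inhibitory classes only, without the deepest nuclei and without the nucleus with most UMIs were added after the data were seen. In the adult hippocampus the number of Gad nuclei was 181 with at least 1 Gad UMI, 59 with at least 4, 26 with at least 10, 155 without the Slc17a condition and 33 in the inhibitory class. The share with at least 1 peptide was 57.5% with at least 1 Gad UMI, 81.4% with at least 4, 87.9% in the inhibitory class, 53.6% when a peptide needed 2 UMIs, and 26.6% and 43.3% after thinning to 1000 and 2000 UMIs. The share with at least 2 peptides was 25.4% with at least 1 Gad UMI, 50.0% with at least 10, 51.5% in the inhibitory class, 17.5% with 2 UMIs a peptide, and 7.45% and 8.89% after thinning. Npy among Sst nuclei was 100% (2 of 2) with at least 10 Gad UMIs and 85.7% (6 of 7) in the inhibitory class. At E14 the number was 656 with at least 10 Gad UMIs and 1047 in the inhibitory classes. The share with at least 1 peptide was 21.8% with at least 1 Gad UMI, 25.9% with at least 4, 35.7% with at least 10, 8.59% with 2 UMIs a peptide, and 5.39% and 9.88% after thinning. The share with at least 2 was 4.63%, 9.15%, 1.09%, 0.185% and 0.422% under at least 4 Gad UMIs, at least 10, 2 UMIs a peptide and thinning to 1000 and 2000. Npy among Sst nuclei was 27.0% (31 of 115), 23.9% (27 of 113), 4.08% and 4.09% under at least 10 Gad UMIs, the inhibitory classes and thinning. The E14 ratio for Penk turned from above to below 1, to 0.915, in the inhibitory classes, and the adult over E14 ratio for Pdyn to 0.738 where 2 Gad UMIs per 10000 were also needed, and the cause was not tested. Of the other values, in the adult 44 levels in Gad nuclei moved beyond their counting interval and 68 did not, and at E14 13 moved and 98 did not. With likely doublets left out the highest class changed for Penk in the adult and for Cort and Pdyn at E14, and with 3 markers a class it changed for Cort, Sst and Tac1 at E14. The share of Gad nuclei with at least 1 peptide fell with thinning in both libraries, so such shares depend on depth.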
